A study of Mus musculus with 10 samples.

Results

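The genes described here encode the subunits of voltage-gated sodium, voltage-gated calcium and potassium channels. They were chosen by symbol alone: every gene whose probe set carried a single annotated symbol starting with Kcn or Cacn and a letter, or made of Scn, a number and a or b. Of the 18820 genes measured, 121 met this rule, 11 for sodium channels, 23 for calcium channels and 87 for potassium channels. Where a gene had several probe sets, the one with the highest mean over all arrays stood for it. The arrays profiled 10 mouse teratomas, growths in which transplanted pluripotent cells turn into many tissues at once, to compare mutant forms of the tumour suppressor VHL with the wildtype protein. VHL recognises hypoxia-inducible factors in the presence of oxygen and, as part of an E3 ubiquitin ligase, hands them over for degradation.

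All 3 groups grew from Vhl-/- embryonic stem cells of the J1 line (donor strain Sv/129), so none of them carried intact mouse Vhl, and each expressed a human VHL cDNA. The cDNA was wildtype in 3 teratomas, R167Q in 3 and P81S in 4. Cells were injected under the skin of both flanks of female nu/nu mice, and tumours were frozen once they had reached a set size. The labels give no age of the tumours. The labels call P81S tumours resistant to apoptosis, and wildtype and R167Q tumours apoptotic. The P81S tumours are 2 replicates of each of 2 clones, and no label says which tumours share a clone or came from separate mice. The spread between these teratomas is therefore all that the p-values below measure, and clone and genotype cannot be told apart. Nude mice lack a normal thymus and most T cells, and the RNA of a tumour mixes donor and host cells.

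Voltage-gated channels open when the membrane depolarises. Sodium channels carry the upstroke of the action potential, calcium channels turn it into calcium entry and transmitter release, and voltage-gated potassium channels repolarise the cell, while inward rectifier and 2-pore-domain potassium channels hold the resting potential. A pore-forming subunit sets which ion passes and when, and auxiliary subunits set how much channel reaches the membrane and how fast it closes. Neurons and muscle express the widest range, but epithelia, glia and vessels have channels of their own, which matters in a teratoma, where all these tissues can form side by side.

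The deposited values were expression levels on a log2 scale, 1 for each probe set on each array. Array medians lay between 6.97 and 7.11, and arrays of a group correlated across genes at 0.989 to 0.993 (Pearson's r) within wildtype, 0.988 to 0.989 within R167Q and 0.966 to 0.989 within P81S. The mouse Vhl probe set read 6.85 to 6.95 in wildtype, 6.83 to 7.21 in R167Q and 8.49 to 8.90 in P81S. No source used here says whether its probes lie in the disrupted part of the gene or bind the human cDNA, so it checks no label. The mean of 3 Y-linked transcripts (Eif2s3y, Kdm5d and Uty) was 4.26 to 4.70 in the wildtype arrays, 8.42 to 9.28 in P81S and 9.12 to 9.52 in R167Q, so the wildtype tumours stood apart on the donor's Y chromosome. The part of this in the channel results was not tested, and P81S and R167Q both had the higher values.

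Channel genes were higher in P81S teratomas than in wildtype ones, with at least 1 gene that rose in each of the 19 channel families. Of the 121 members, 70 rose, 2 fell and 49 did not pass limma's moderated test (4 against 3 arrays, adjusted p under 0.05 over 18820 genes). The share that passed was 59.5%, against 34.7% of all genes, and the share that rose was 57.9%, against 17.2% of all genes. The median member differed by 0.81 log2 (1.00 is a doubling), and the median gene by 0.015. The members' mean level was 7.86, 7.89, 8.0 and 8.04 log2 in P81S (arrays in replicate order, here and below), 7.31, 7.23 and 7.13 in wildtype, and 7.27, 7.48 and 7.39 in R167Q. Every P81S array lay above every other array on this mean. At least 2-fold higher were 45 members, or 37.2%, against 6.1% of all genes, and 1.65% of members fell, against 17.5% of all genes. The P81S arrays lay wholly above the wildtype arrays for 74 members and wholly below for 3, against 19.9% and 20.7% of all genes. In bulk tissue, fewer cells of a type and less RNA per cell cannot be told apart, and neither can more cells and more RNA.

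**Figure D1:**
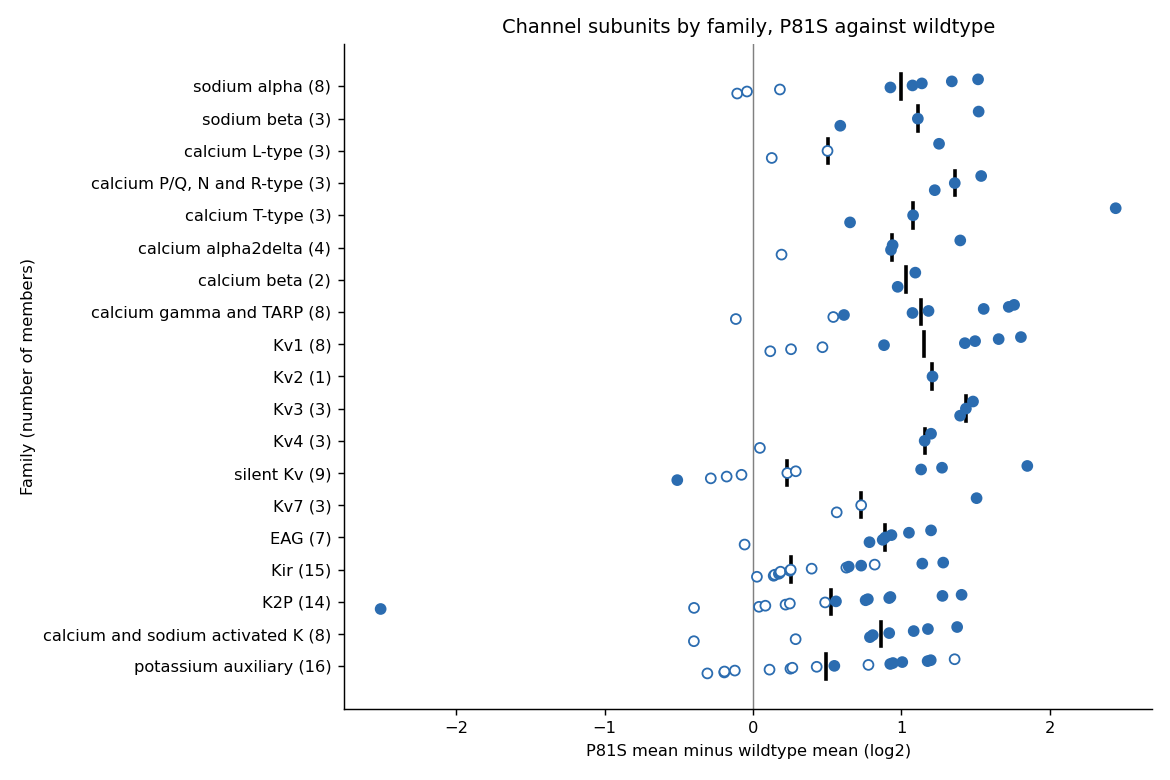
Difference of P81S from wildtype (log2, horizontal axis) for each of the 121 members, 1 row per channel family. Filled points passed the test and open points did not, and the black bar is the family's median. Medians lie above 0 in all 19 families, from 0.23 in the silent Kv subunits to 1.44 in Kv3.

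Among the pore-forming sodium channel subunits, 5 of 8 rose in P81S, 0 fell and 3 did not pass, with a median of 1.00 log2. The 5 were Scn1a, Scn2a, Scn3a, Scn8a and Scn9a, the first 4 of which are the main pores of the central nervous system. Scn2a, which carries the initial axonal sodium current of young excitatory neurons, read 12.11, 12.08, 12.31 and 12.45 in P81S, 10.82, 10.71 and 10.63 in wildtype, and 10.92, 11.39 and 11.28 in R167Q. All 4 P81S arrays lay above all others. Against wildtype it was 2.86-fold higher (log2 difference 1.52 ± 0.13, SE, adjusted p = 2.7e-05; errors of differences are SEs throughout). Scn3a, an embryonic and neonatal brain channel, read 8.54, 9.01, 9.05 and 8.97 in P81S against 7.87, 7.68 and 7.72 in wildtype, and rose 2.20-fold (1.14 ± 0.14). Replicate 1 was the lowest P81S array for both Scn3a and Scn1a, a channel of inhibitory neurons. Scn1a read 6.86 there and 7.71, 7.75 and 7.89 in the other P81S arrays, against 6.36, 6.33 and 5.95 in wildtype (2.53-fold, 1.34 ± 0.29). Scn8a, the pore of mature axon initial segments and nodes, was 1.90-fold higher, and Scn9a, best known from pain-sensing neurons, was 2.11-fold higher.

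The remaining sodium channel pores did not pass. Scn10a and Scn11a, pores of peripheral sensory neurons, read 4.55 to 5.09 and 5.29 to 5.71 in P81S against 4.79 to 5.02 and 5.12 to 5.37 in wildtype. Their means over all arrays, 4.82 and 5.37, lay under 5.92, the bound of the lowest 25% of genes. Scn7a, a sodium-sensing relative found in glia and other non-neuronal cells, differed by -0.11 ± 0.21 log2. Its arrays overlapped, from 7.31 to 8.04 in P81S and from 7.66 to 8.09 in wildtype.

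All 3 measured sodium channel beta subunits, single-span proteins that anchor the pore and speed its gating, rose in P81S. Scn2b read 7.08, 7.80, 8.07 and 8.59 in P81S, 6.50, 6.27 and 6.32 in wildtype, and 6.21, 6.55 and 7.06 in R167Q. Each P81S array exceeded each array of the other groups, replicate 1 only just, and the P81S arrays were far more spread than the wildtype ones. The difference from wildtype was 2.87-fold (1.52 ± 0.31, adjusted p = 0.00314). Scn3b rose 2.16-fold (1.11 ± 0.23) and Scn4b 1.5-fold (0.59 ± 0.16). Scn4b lost its call without wildtype replicate 1 (adjusted p = 0.0601).

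Scn2a was the 1 member with many probe sets, 14 in all, and they gave the result repeatedly from different stretches of the gene. In all 14 the 4 P81S arrays lay above the 3 wildtype arrays and above the 3 R167Q arrays. The difference of P81S from wildtype ran from 1.41 to 1.79 log2 with a median of 1.6, and that of R167Q from wildtype from 0.26 to 0.68 with a median of 0.475. Probe sets of 1 gene share their RNA and are not replicates. A further 5 members had 2 probe sets each. For Cacna2d1, Cacng2 and Kcnh8 both lay wholly above wildtype in P81S (0.90 and 0.94, 1.57 and 1.76, 0.95 and 0.93). For Kcnd3 and Scn9a they disagreed: the brighter sets differed by 1.20 and 1.08, and the dimmer ones by 0.22 and 0.62 with arrays that overlapped.

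**Figure D2:**
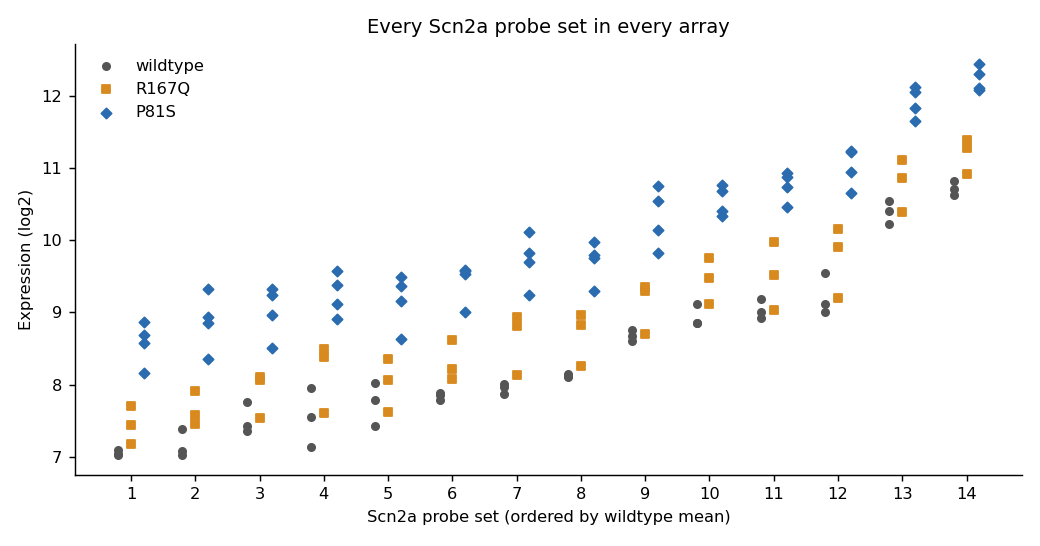
Expression (log2, vertical axis) of the 14 Scn2a probe sets, ordered along the horizontal axis by their wildtype mean, with 1 point per array. In every probe set the 4 P81S diamonds lie above the 3 wildtype circles and the 3 R167Q squares; levels of different probe sets cannot be compared with each other.

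Calcium channel subunits had the largest share of calls, with 18 of 23 higher in P81S than in wildtype, 0 lower and 5 that did not pass. Of the 9 pores 7 rose. The presynaptic pores Cacna1a (P/Q-type), Cacna1b (N-type) and Cacna1e (R-type), which admit the calcium that releases transmitter, rose 2.57-fold, 2.34-fold and 2.91-fold. Cacna1e read 9.26, 9.31, 9.56 and 9.56 in P81S, 7.94, 8.04 and 7.67 in wildtype, and 8.59, 8.46 and 8.44 in R167Q. The groups did not overlap, with R167Q between the others (P81S against wildtype 1.54 ± 0.13, adjusted p = 3.18e-05).

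The T-type pores, low-threshold channels that support burst firing, all rose, and Cacna1i had the largest rise of any member. It read 8.39, 8.27, 8.47 and 8.66 in P81S, 6.30, 6.10 and 5.61 in wildtype, and 6.33, 6.68 and 7.10 in R167Q. Its P81S arrays lay close together and more than 1 log2 above the highest other array. It was 5.45-fold higher than in wildtype (2.45 ± 0.22, adjusted p = 3.49e-05). Cacna1g and Cacna1h rose 2.11-fold and 1.57-fold. Among the L-type pores, Cacna1c, the main form of heart and brain, rose 2.39-fold (1.26 ± 0.15). The skeletal muscle pore Cacna1s differed by 0.50 ± 0.32 with overlapping arrays, and the retinal pore Cacna1f, at 4.68 to 4.72 in P81S and 4.50 to 4.64 in wildtype, by 0.13 ± 0.11.

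Most auxiliary calcium subunits rose as well. Both measured beta subunits, cytoplasmic partners that carry the pore to the membrane, rose (Cacnb1 2.14-fold, Cacnb4 1.97-fold), as did 3 of 4 alpha2delta subunits, extracellular partners that raise the number of pores at the membrane (Cacna2d1 1.92-fold, Cacna2d2 2.63-fold, Cacna2d3 1.91-fold), while Cacna2d4 differed by 0.19 ± 0.13. Of the 8 gamma subunits 6 rose, and these were the TARPs, which escort AMPA-type glutamate receptors: Cacng2, Cacng3, Cacng4, Cacng5, Cacng7 and Cacng8. Cacng8 read 8.46, 8.41, 8.44 and 8.53 in P81S, 7.13, 6.96 and 6.63 in wildtype, and 6.93, 7.46 and 7.29 in R167Q. The 4 P81S arrays lay close together and well above both other groups, which overlapped. It rose 2.94-fold (1.56 ± 0.16, adjusted p = 7.82e-05), Cacng2 3.39-fold (1.76 ± 0.26) and Cacng3 3.31-fold (1.73 ± 0.22). Cacng1, the gamma subunit of skeletal muscle, differed by 0.54 ± 0.27 and Cacng6 by -0.12 ± 0.13, and neither passed. Cacng4 lost its call without wildtype replicate 3 (adjusted p = 0.0622).

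**Figure D3:**
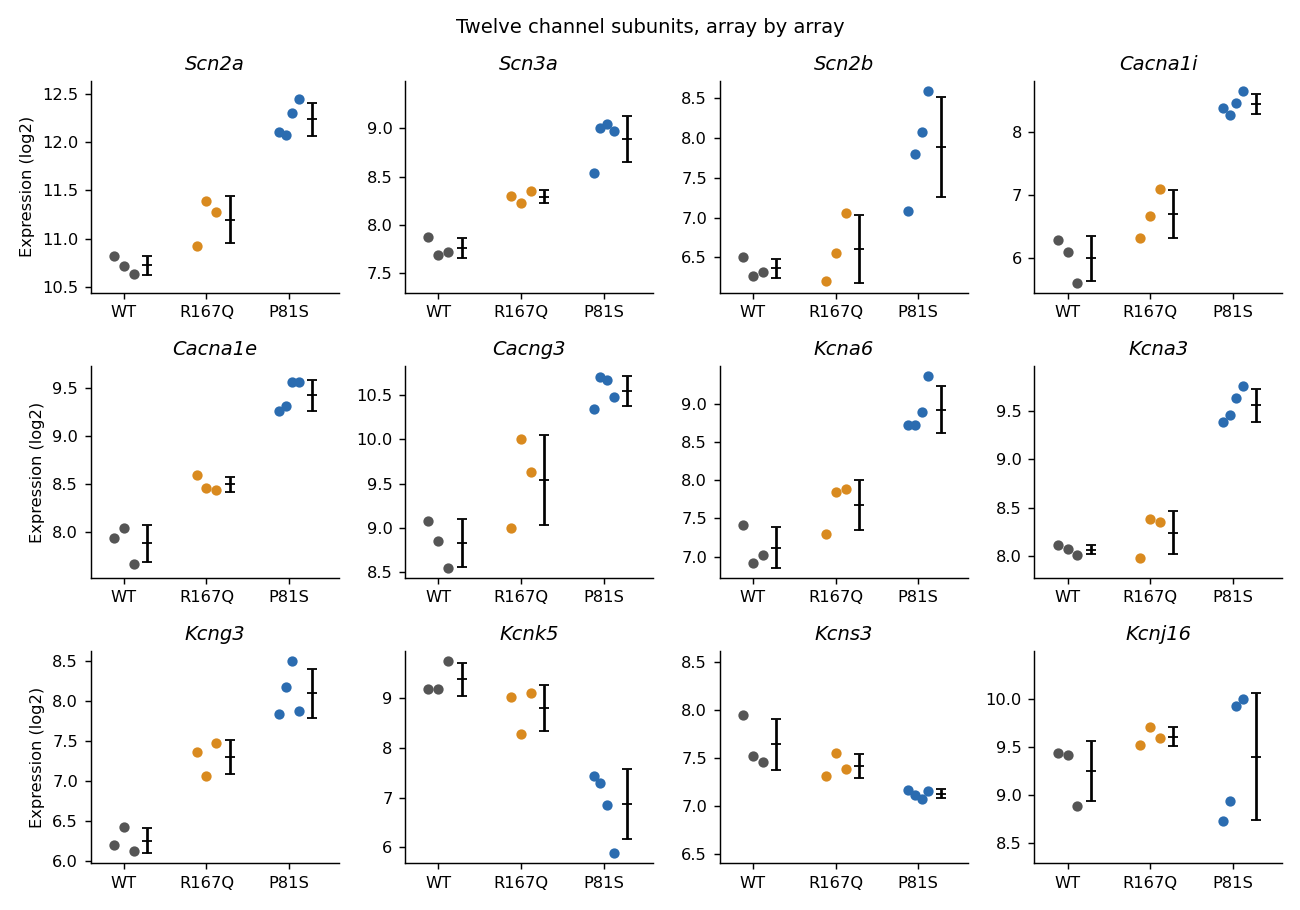
Expression (log2, vertical axes) in every array for 12 members, with wildtype, R167Q and P81S side by side. Points are arrays and bars the group mean ± SD. For 9 of them, from Scn2a to Kcng3, all 4 P81S arrays lie above the other 6, for Kcnk5 and Kcns3 below them, and for Kcnj16 the groups overlap.

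Of the 34 voltage-gated potassium pores, 21 rose in P81S, 1 fell and 12 did not pass. In the Kv1 family, the Shaker-type channels of axons, 5 of 8 rose. Kcna3 read 9.39, 9.46, 9.64 and 9.76 in P81S, 8.11, 8.07 and 8.01 in wildtype, and 7.98, 8.38 and 8.35 in R167Q. The P81S arrays lay wholly above both other groups (2.82-fold against wildtype, 1.5 ± 0.14, adjusted p = 4.12e-05). Kcna6 read 8.72, 8.72, 8.89 and 9.37 in P81S against 7.42, 6.91 and 7.02 in wildtype and rose most of the family, 3.50-fold (1.81 ± 0.21). Kcna4, a rapidly inactivating channel, rose 3.15-fold, Kcna2 2.69-fold and Kcna1 1.84-fold. Kcna5, known from atrial muscle, differed by 0.47 ± 0.18, Kcna7 by 0.26 ± 0.22 and Kcna10 by 0.12 ± 0.18, and the 3 did not pass.

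The delayed rectifier Kcnb2 (Kv2) rose 2.31-fold. All 3 measured Kv3 pores, which let neurons fire at high rates, rose: Kcnc1 2.63-fold, Kcnc2 2.70-fold and Kcnc4 2.80-fold, with a family median of 1.44 log2, the highest of the 19 families. Of the Kv4 pores, which give the transient A-current of dendrites, Kcnd2 rose 2.23-fold and Kcnd3 2.30-fold. Kcnd1 did not pass: it read 7.11, 7.43, 7.52 and 7.97 in P81S and 7.44, 7.36 and 7.57 in wildtype.

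In the Kv7 family Kcnq3, a subunit of the M-current that restrains repetitive firing, rose 2.85-fold, from 7.90, 8.01 and 7.77 in wildtype to 9.26, 9.42, 9.38 and 9.54 in P81S (1.51 ± 0.14, adjusted p = 4.23e-05). Kcnq5 did not pass at 0.57 ± 0.22 (adjusted p = 0.0661), and Kcnq1, the pore of heart and secretory epithelia, did not at 0.73 ± 0.37. Of the 7 EAG-type pores, 6 rose. Kcnh1 was 2.30-fold higher, Kcnh5 2.07-fold, Kcnh8 1.91-fold, Kcnh7 1.86-fold, Kcnh4 1.83-fold and Kcnh2, the ERG channel of heart and brain, 1.72-fold. Kcnh3 differed by -0.06 ± 0.19. The P81S arrays of Kcnh4 ran from 7.18 to 8.28 and reached into the wildtype range of 6.57 to 7.34.

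The silent Kv subunits, which form no channel by themselves and modify Kv2 pores, divided most. Kcng3, Kcnf1 and Kcns2 rose 3.61-fold, 2.42-fold and 2.19-fold, Kcns3 fell, and 5 of 9 did not pass. Kcng3 read 7.84, 8.17, 8.50 and 7.87 in P81S, 6.20, 6.42 and 6.12 in wildtype, and 7.36, 7.06 and 7.47 in R167Q. The 3 groups did not overlap, and R167Q stood in the middle (P81S against wildtype 1.85 ± 0.19, adjusted p = 6.46e-05). Kcns3 read 7.17, 7.12, 7.07 and 7.16 in P81S, 7.95, 7.52 and 7.46 in wildtype, and 7.31, 7.55 and 7.39 in R167Q. The P81S arrays agreed closely and lay under all others, but wildtype replicate 1 stood well above the other wildtype arrays. The difference of -0.51 ± 0.15 (1.42-fold lower, adjusted p = 0.0201) lost its call without wildtype replicate 1 (adjusted p = 0.0932) or without P81S replicate 3 (0.0509). Kcng1, Kcng4, Kcns1, Kcnv1 and Kcnv2 differed by -0.28 to 0.29 log2.

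Among calcium-activated and sodium-activated potassium channels, 6 of 8 rose. Kcnma1, the large-conductance BK pore, read 9.87 to 10.06 in P81S against 8.66, 8.77 and 8.31 in wildtype (2.6-fold, 1.38 ± 0.15, adjusted p = 8.31e-05). The small-conductance channels Kcnn1, Kcnn2 and Kcnn3, which open on calcium entry and slow repeated firing, rose 2.27-fold, 1.89-fold and 1.73-fold, and the sodium-activated Kcnt1 and Kcnt2 2.12-fold and 1.75-fold. Kcnn4, the intermediate-conductance channel of epithelia and blood cells, did not pass. It read 7.53 in P81S replicate 1 and 6.23 to 6.58 in the other 9 arrays. Kcnu1, a BK relative of sperm, read 6.52, 6.54, 6.20 and 5.96 in P81S and 6.69, 6.71 and 6.71 in wildtype. These arrays did not overlap, but the difference of -0.40 ± 0.16 did not pass (adjusted p = 0.0856).

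The 2-pore-domain (K2P) leak channels held the clearest exception. Of 14, 7 rose, 1 fell and 6 did not pass. The mechanosensitive Kcnk2 (TREK-1) rose 2.65-fold, the acid-inhibited Kcnk3 (TASK-1) 2.43-fold, Kcnk10 (TREK-2) 1.90-fold, Kcnk1 (TWIK-1) 1.89-fold, Kcnk4 (TRAAK) 1.71-fold, Kcnk12 1.69-fold and Kcnk13 1.47-fold. Kcnk5 (TASK-2), an alkali-activated leak channel known from kidney tubules and the brainstem, fell. It read 7.44, 7.30, 6.85 and 5.88 in P81S, 9.19, 9.19 and 9.75 in wildtype, and 9.03, 8.27 and 9.11 in R167Q. All P81S arrays lay under all others, and replicate 4 was the lowest of them. Kcnk5 was 5.70-fold lower than in wildtype (-2.51 ± 0.35, adjusted p = 0.000343), the largest difference in size of any member. Kcnk9 (TASK-3) varied from 7.77 to 10.09 over all arrays and did not pass at 0.49 ± 0.41. Kcnk16 differed by -0.40 ± 0.16 (adjusted p = 0.0814), and Kcnk6, Kcnk7, Kcnk15 and Kcnk18 by 0.04 to 0.25.

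Inward rectifiers (Kir) passed least often: 4 of 15 rose in P81S, 0 fell and 11 did not pass, a share of 26.7% against 34.7% of all genes. The share that rose was also 26.7%, against 17.2% of all genes, and all 15 differences lay above 0. The 4 were Kcnj3, Kcnj6 and Kcnj9, the neuronal G-protein-gated subunits, and Kcnj10 (Kir4.1), the potassium-buffering channel of astrocytes. Kcnj6 read 6.63, 7.0, 6.96 and 7.06 in P81S, 5.76, 5.57 and 5.56 in wildtype, and 5.85, 5.98 and 5.96 in R167Q. P81S lay wholly above both groups (2.43-fold against wildtype, 1.28 ± 0.14, adjusted p = 9.88e-05). Kcnj9 rose 2.21-fold, Kcnj3 1.66-fold and Kcnj10 1.57-fold. The heart-type G-protein-gated Kcnj5 differed by 0.18 ± 0.18. Kcnj2 (Kir2.1), which sets the resting potential of muscle and vessel wall, differed by 0.19 ± 0.23, and Kcnj4, Kcnj12 and Kcnj14 by 0.25, 0.40 and 0.18. The ATP-sensitive pores Kcnj11 and Kcnj8 differed by 0.03 ± 0.15 and 0.82 ± 0.38, and the epithelial channels Kcnj1, Kcnj13, Kcnj15 and Kcnj16 by 0.14 to 0.63.

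Of the 16 auxiliary potassium subunits 6 rose, 0 fell and 10 did not pass. The share that passed, 37.5%, was close to the 34.7% of all genes. The share that rose was also 37.5%, against 17.2% of all genes. All 4 KChIP genes, calcium-binding partners of Kv4 pores, rose: Kcnip1 2.26-fold, Kcnip2 1.90-fold, Kcnip3 2.01-fold and Kcnip4 2.30-fold. Of the Kv1 beta subunits Kcnab2 rose 1.92-fold, while Kcnab1 and Kcnab3 differed by 0.11 ± 0.21 and -0.31 ± 0.23. Of the BK beta subunits Kcnmb2 rose 1.46-fold. Kcnmb4, the neuronal form, differed by 0.43 ± 0.20, and Kcnmb1, that of smooth muscle, by -0.19 ± 0.26. The 5 Kcne genes, small single-span subunits that pair with Kcnq1 and other pores, differed by -0.19 to 0.78 and did not pass. Kcnrg, a regulator of channel assembly, did not pass at 1.36 ± 0.54 (adjusted p = 0.0749).

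Some of these calls rested on a single array. Of the 72 members that passed, 61 passed also without each array in turn. Without wildtype replicate 3, 9 lost their call (adjusted p from 0.0513 to 0.153): Cacng4, Kcna1, Kcnh4, Kcnh5, Kcnh7, Kcnj10, Kcnk13, Kcnmb2 and Kcnt2. Without wildtype replicate 1, Scn4b, Kcns3 and Kcnt2 lost theirs (0.0545 to 0.0932), and without wildtype replicate 2, Kcna1, Kcnh4, Kcnmb2 and Kcnt2 (0.0657 to 0.0822). Without P81S replicate 3 the calls of Kcna1, Kcnh4, Kcnmb2, Kcns3 and Kcnt2 ended (adjusted p up to 0.0941), without replicate 4 those of Kcna1 and Kcnt2 (0.0631 and 0.0895), without replicate 2 those of Kcnh4 and Kcnt2 (0.0678 and 0.0615), and without replicate 1 that of Kcnmb2 (0.0647). Kcnmb2 also stood at 0.05 without R167Q replicate 3.

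Of the 121 members, 20 had a mean under 5.92 log2, the bound of the lowest 25% of genes, and 2 of these rose (Kcnf1 and Scn4b), against 68 higher and 2 lower of the other 101.

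Promoter sequence was looked at because so many members moved together. RefSeq (GRCm38.p6) gave windows of 250 bases before the start of transcription for 93 of the 121 members, 126 windows in all. Those of 4 members with large differences are printed, with a motif in capitals where 1 was found.
Scn2a (second listed start, chr2:65668436-65668685, plus strand; capitals mark TATAAA, 84 bases before the start): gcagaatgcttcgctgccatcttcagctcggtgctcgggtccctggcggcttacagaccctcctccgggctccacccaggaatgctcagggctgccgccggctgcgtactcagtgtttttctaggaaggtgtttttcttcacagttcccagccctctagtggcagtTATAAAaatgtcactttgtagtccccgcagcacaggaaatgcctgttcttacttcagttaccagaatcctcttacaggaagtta
Cacna1i (chr15:80286988-80287237, plus strand): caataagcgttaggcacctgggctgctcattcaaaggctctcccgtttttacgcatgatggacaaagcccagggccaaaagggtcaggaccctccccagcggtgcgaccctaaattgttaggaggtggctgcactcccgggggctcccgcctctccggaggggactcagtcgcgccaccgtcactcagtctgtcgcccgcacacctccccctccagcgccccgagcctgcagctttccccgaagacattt
Kcna6 (chr6:126740675-126740924, minus strand; capitals mark ACGTG on the opposite strand, 8 bases before the start): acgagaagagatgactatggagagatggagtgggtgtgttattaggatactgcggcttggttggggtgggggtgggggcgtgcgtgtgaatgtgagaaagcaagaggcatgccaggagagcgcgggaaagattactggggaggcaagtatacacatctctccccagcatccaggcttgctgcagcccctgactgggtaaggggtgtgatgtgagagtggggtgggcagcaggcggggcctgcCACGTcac
Kcnk5 (chr14:20181783-20182032, minus strand): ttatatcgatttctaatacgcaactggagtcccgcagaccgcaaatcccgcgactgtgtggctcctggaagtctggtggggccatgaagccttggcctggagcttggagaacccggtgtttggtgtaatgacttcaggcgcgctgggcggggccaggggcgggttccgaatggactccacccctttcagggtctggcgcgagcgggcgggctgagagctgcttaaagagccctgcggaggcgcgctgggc

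Motifs were searched on both strands of every window: ACGTG, the core of the hypoxia response element to which hypoxia-inducible factors bind; TGACGTCA, the cyclic AMP response element; TTCAGCACC, the left part of the RE1 element bound by the neuronal repressor REST; and TATAAA, the TATA box. No motif contains another, and each was counted by itself. ACGTG lay in 12.7% of member windows and in 16.6% of all 32851 windows. Counted by gene it lay in 5 of 57 members that rose in P81S (8.77%), in 9 of 34 that did not pass (26.5%) and in 18.5% of all genes. TATAAA lay in 3.17% of member windows and 12.4% of all. TGACGTCA and TTCAGCACC were in none of the 126 member windows, and in 1.55% and 0.301% of all. The median GC content was 61.2% in windows of members that rose, 53.0% in those of members that did not pass and 52.4% over all windows. A match is only a run of letters, and its absence says nothing about a factor.

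Between R167Q and wildtype, no channel gene passed. Of the 121 members 0 passed limma's test (3 against 3 arrays), beside 0.0903% of all genes (17 genes). At an unadjusted p under 0.05, 23 members differed, 21 higher and 2 lower (Kcne1 and Kcnk15), against 9.73% of all genes in either direction and 3.93% higher. The median member differed by 0.17 log2 and the median gene by -0.02. The R167Q arrays lay wholly above the wildtype arrays for 21 members and wholly below for 7, against 6.93% and 12.4% of all genes.

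Kcng3 came closest to passing. At 7.36, 7.06 and 7.47 in R167Q against 6.20, 6.42 and 6.12 in wildtype, the arrays did not overlap, but the difference of 1.05 ± 0.20 log2 had an adjusted p of 0.133. Cacna1i differed by 0.70, Cacna1e by 0.61, Scn3a by 0.53, Scn2a by 0.48, Kcnq3 by 0.47 and Kcnd3 by 0.43, each with arrays wholly above wildtype. Kcne3, which pairs with Kcnq1 in epithelia, had the largest difference, 1.13 ± 0.39, with an adjusted p of 0.392. It read 7.83, 7.88 and 8.51 in R167Q, 6.77, 6.55 and 7.51 in wildtype, and 8.48, 6.81, 7.95 and 7.63 in P81S. R167Q lay wholly above wildtype, while P81S spread over both. Kcnj2 and Kcna1 differed by 0.68 and 0.76, and for Kcna1 the R167Q arrays, at 6.63, 7.28 and 7.76, reached as high as the P81S ones.

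**Figure D4:**
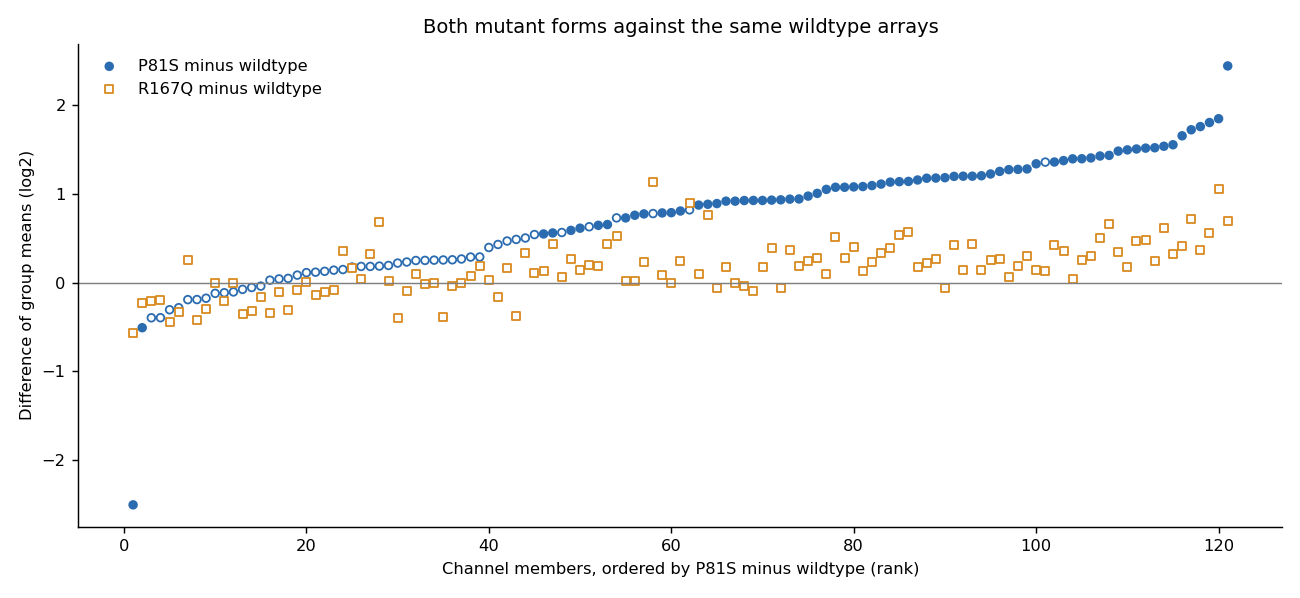
Difference from wildtype (log2, vertical axis) of each of the 121 members, ranked along the horizontal axis by P81S. Circles are P81S, filled where the test was passed, and squares are R167Q; both share the 3 wildtype arrays. P81S runs from -2.51 to 2.45 and R167Q from -0.57 to 1.13.

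P81S was also higher than R167Q, the other mutant. In this comparison (4 against 3 arrays) 59 members rose, 1 fell and 61 did not pass. That is 49.6% of members against 22.5% of all genes, and 48.8% higher against 12.4%, with 0.826% lower against 10.1%. At least 2-fold higher were 23 members (19.0%), against 3.34% of all genes. P81S arrays lay wholly above R167Q arrays for 61 members and wholly below for 2, against 16.5% and 14.2% of all genes. The median member differed by 0.60 log2 and the median gene by 0.023. Calcium channel subunits gave 16 of 23 higher, voltage-gated potassium pores 19 of 34, sodium channel subunits 6 of 11, calcium-activated and sodium-activated potassium channels 5 of 8, and K2P channels 7 of 14 with 1 lower. The auxiliary potassium subunits gave 4 of 16 higher, above the 12.4% of all genes that rose. The inward rectifiers gave 2 of 15 higher (13.3%), close to that 12.4%. Against the 22.5% of all genes that passed in either direction, the auxiliary subunits were close and the inward rectifiers below.

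Cacna1i again had the largest rise, 3.35-fold (1.75 ± 0.22, adjusted p = 0.000737). Cacng2 followed at 2.63-fold (1.40 ± 0.26), Kcnc1 at 2.57-fold (1.36 ± 0.19) and Kcna3 at 2.50-fold (1.33 ± 0.14). Scn2a was 2.06-fold higher (1.04 ± 0.13) and Scn2b 2.43-fold (1.28 ± 0.31). Kcnk5 was the member that fell, 3.83-fold (-1.94 ± 0.35, adjusted p = 0.00337). Kcnk15 passed here and in no other comparison, at 5.95, 6.09, 6.07 and 5.99 in P81S and 5.59, 5.37 and 5.24 in R167Q (1.54-fold higher, 0.62 ± 0.17, adjusted p = 0.0203). Both sets of arrays were in the dim range of the platform. Its wildtype arrays, at 5.60, 6.19 and 5.62, overlapped with those of P81S and lay just above those of R167Q.

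Of the arrays left out in turn, R167Q replicate 1 lowered this count most. Without that array 36 members passed, 35 higher and 1 lower, in place of 60. Of the 60, 35 passed without each array in turn, Cacna1i, Cacng2, Kcna3, Kcnc1, Scn2a and Kcnk5 among them. The other 25 lost their call without at least 1 array, at adjusted p of 0.0501 to 0.217, and all but Kcnk15 did so without R167Q replicate 1 (0.0526 to 0.217). Kcnk15 lost its call without R167Q replicate 2 or 3 (adjusted p = 0.058 and 0.0865). Scn1a (adjusted p = 0.0638 without R167Q replicate 1), Scn2b (0.0723), Kcna2 (0.0607), Kcnt1 (0.0535) and Kcnh2 (0.068) were among them.

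Proteins that work with these channels were counted as a list of their own. It, which, like the members, was drawn up with earlier results of these data known, had 34 of 36 genes measured. In P81S against wildtype 24 rose, 2 fell and 8 did not pass (76.5% passed, against 34.7% of all genes), with a median of 1.05 log2. The ankyrin genes Ank2 and Ank3, the second of which tethers sodium and Kv7 channels at axon initial segments, rose 2.38-fold and 2.15-fold. Nalcn, the sodium leak channel, rose 2.67-fold, with its partners Unc79, Unc80 and Fam155a at 2.26-fold, 2.15-fold and 2.37-fold. Dpp6 and Dpp10, partners of Kv4 pores, rose 2.39-fold and 1.86-fold, and the pacemaker channels Hcn2, Hcn3 and Hcn4 2.83-fold, 2.22-fold and 2.18-fold.

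Lgi1, a secreted protein linked to Kv1 channels and synapses, rose most. It read 10.83, 10.79, 10.54 and 10.64 in P81S, 8.69, 8.26 and 8.09 in wildtype, and 9.21, 9.86 and 9.44 in R167Q (5.11-fold against wildtype, 2.35 ± 0.18, adjusted p = 1.96e-05). The 3 groups did not overlap. Rest, the transcriptional repressor of neuronal genes in non-neuronal cells, fell. It read 9.73, 9.35, 9.27 and 9.11 in P81S, 10.35, 10.45 and 10.90 in wildtype, and 10.55, 10.15 and 10.63 in R167Q, so that P81S lay wholly below (2.30-fold lower than wildtype, -1.20 ± 0.18, adjusted p = 0.000491). The other partner that fell was Lgi3 (1.87-fold). Of the partners 0 passed in R167Q against wildtype by limma, 7 of 34 at an unadjusted p under 0.05 (9.73% of all genes). In P81S against R167Q 22 rose and 2 fell (70.6% passed, against 22.5% of all genes).

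Markers of neurons were higher in the same arrays as the channels. Of 10 measured neuron markers, 9 rose in P81S against wildtype and 0 fell, with a median of 0.84 log2, and 9 rose against R167Q. Over all genes, 17.2% rose and 17.5% fell against wildtype, and 12.4% rose against R167Q. Their summed level, as a mean over the list, was 10.54 to 10.92 in wildtype, 10.71 to 11.20 in R167Q and 11.46 to 11.84 in P81S. The lowest of the 10, Rbfox3, still averaged 9.55, so no defining marker was near the floor. Glial markers gave 3 of 10 higher and 0 lower (list mean 9.05 to 9.47 in wildtype, 9.21 to 9.95 in R167Q, 9.63 to 10.48 in P81S). Markers of pluripotent cells went the other way, with 8 of 8 lower and a list mean of 10.28 to 11.09 in wildtype, 9.37 to 10.41 in R167Q and 6.01 to 8.14 in P81S, and so did cycling-cell markers, 4 of 5 lower (10.42 to 10.73, 10.15 to 10.47 and 8.51 to 9.46). Within P81S the pluripotency mean was lowest in replicate 4, at 6.01, the array in which Kcnk5 was lowest. The cycling-cell and epithelial means were lowest there too, at 8.51 and 8.22. The part of these cell types in the channel results was not tested.

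Muscle, vessel, epithelial and macrophage markers were measured too, since these tissues have channels of their own. In P81S against wildtype, where 34.7% of all genes passed, 0 of 11 skeletal and cardiac muscle markers passed (1 at an unadjusted p under 0.05 by limma). Of 7 smooth muscle and pericyte markers 1 rose, and of 6 endothelial markers 1 fell. Of 8 epithelial markers 0 passed (0 unadjusted), and of 5 macrophage markers 0 (1 unadjusted). The median was 0.80 log2 for muscle, with all 11 above 0, beside 0.84 for neuron markers. It was 0.70 for smooth muscle and pericyte, 0.715 for endothelial, 0.21 for macrophage and 0.001 for epithelial markers. The muscle list mean ran from 6.63 to 7.56 in wildtype, from 6.86 to 8.90 in R167Q and from 6.61 to 9.03 in P81S. Its 2 highest arrays were P81S replicate 3 at 9.03 and R167Q replicate 1 at 8.90. The muscle pore Cacna1s was highest in those, at 6.95 and 7.24. The part of the muscle RNA in that gene's values was not tested.

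Some members stood out in P81S replicate 1, and they are named here after their values were seen. Kcnrg read 10.47 there and 7.46 to 8.54 in the other P81S arrays, Kcnj15 7.94 against 5.94 to 6.09, and Kcnj13 8.34 against 6.10 to 6.87. Kcnq1 read 8.17 against 6.49 to 7.05 and Kcnn4 7.53 against 6.24 to 6.34. Kcnj16, counted among the epithelial channels above, went the other way and was the lowest of the P81S arrays in this one. The mean of 8 epithelial markers was 11.21 in this array and 8.22 to 9.79 in the other 9. Of these markers, Foxa1 was higher in R167Q replicate 1 (11.21) than in P81S replicate 1 (11.06). Endothelial markers, with a mean of 9.58 there and 7.37 to 9.02 elsewhere, and smooth muscle and pericyte markers, at 9.43 against 7.70 to 8.82, were highest in it too. The 5 channel genes that were high in this array passed in no comparison by limma, and the part of these cell types in their values was not tested.

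**Figure D5:**
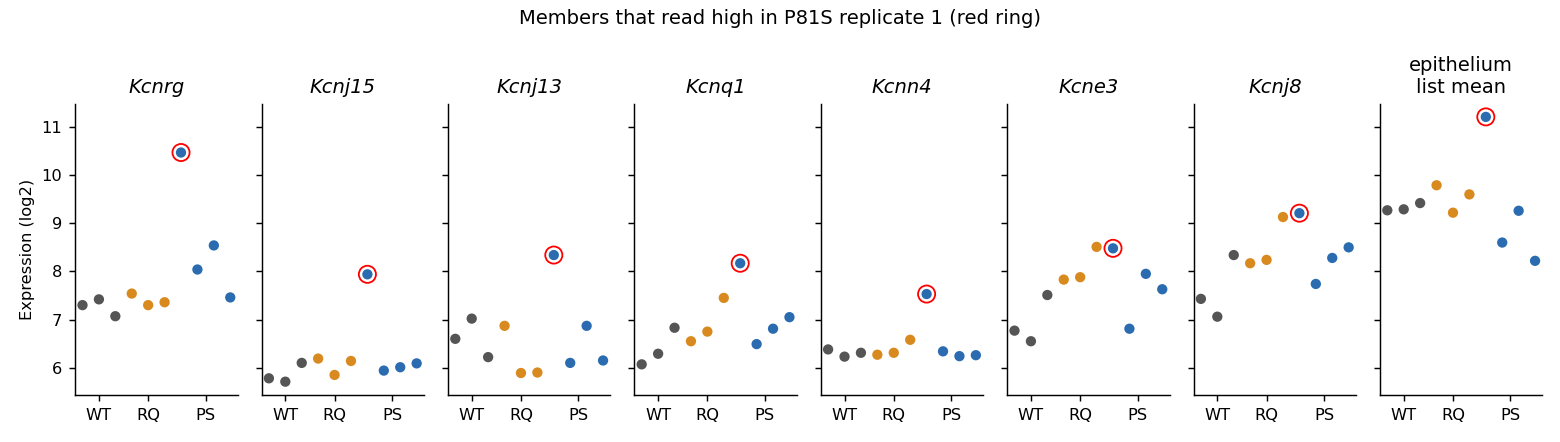
Expression (log2, vertical axes) in every array of 7 members that read high in P81S replicate 1 and of the mean of 8 epithelial markers, by group, with that array ringed in red. The ringed array is at 11.21 for the epithelial mean, and the other 9 are at 8.22 to 9.79.

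Within each genotype, certain arrays held the highest or the lowest value of many members. P81S replicate 1 was the lowest P81S array for 54.5% of the 121 members, against 32.2% of all genes, and replicate 4 the highest for 45.5%, against 26.9%. Wildtype replicate 3 was the lowest of its group for 55.4% of members, against 35.6% of all genes, and replicate 1 the highest for 55.4%, against 35.1%. R167Q replicate 1 was the lowest for 57.9%, against 31.7%, and replicate 2 the highest for 48.8%, against 38.4%. No test of these shares was made.

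The glial marker mean was lowest in P81S replicate 1 (9.63), wildtype replicate 3 (9.05) and R167Q replicate 1 (9.21), and highest in P81S replicate 4 (10.48), wildtype replicate 1 (9.47) and R167Q replicate 2 (9.95). The neuron marker mean was lowest and highest in the same arrays (11.46, 10.54 and 10.71; 10.92 and 11.20), except that its highest P81S array was replicate 2 (11.84) and not replicate 4 (11.75). The part of these cell types in the shares was not tested. Kcnd2, for example, a Kv4 pore, read 9.57, 9.59 and 9.27 in wildtype, 9.09, 10.27 and 9.58 in R167Q, and 10.03, 10.56, 10.82 and 11.13 in P81S. Its lowest R167Q array was below all wildtype arrays and its highest above the lowest P81S array.

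Channel genes often lie in clusters of relatives, and 19 pairs of members were neighbours among the protein-coding RefSeq genes of a chromosome. Members of a cluster did not all move. On chromosome 2, Scn3a and Scn2a rose by 1.14 and 1.52 log2 in P81S against wildtype and Scn1a and Scn9a by 1.34 and 1.08, while Scn7a, beside Scn9a, differed by -0.11. On chromosome 3, Kcna3 and Kcna2 rose by 1.5 and 1.43 and Kcna10 differed by 0.12. On chromosome 6, Kcna6 and Kcna1 rose by 1.81 and 0.88 and Kcna5 differed by 0.47. On chromosome 7, Cacng7 and Cacng8 rose by 1.08 and 1.56 and Cacng6 differed by -0.12. On chromosome 14, Kcnk5 fell by 2.51 and Kcnk16 differed by -0.40.

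Genes of chromosome 11 in general read lower in P81S replicates 1 and 2 than in 3 and 4, and the values of the 12 members there are given beside that share. Against the mean of wildtype and R167Q, their median was 0.21 and 0.29 log2 in P81S replicates 1 and 2, and 0.87 and 0.70 in replicates 3 and 4. For the 109 members on other chromosomes it was 0.52, 0.70, 0.76 and 0.86. Replicates 1 and 2 both lay below 3 and 4 for 8 of the 12 (66.7%), against 53.6% of all genes of that chromosome, 32.1% of the other members and 14.9% of genes elsewhere. Cacna1g, for example, read 9.45 and 9.52 in replicates 1 and 2 and 10.19 and 10.29 in 3 and 4. Kcnj16 read 8.73 and 8.94 in replicates 1 and 2, and 9.93 or more in 3 and 4, while its wildtype arrays read 9.44, 9.42 and 8.89, so that it was above most of them in one pair of P81S tumours and below most in the other. Of the 12, 6 rose in P81S against wildtype. Without the members of chromosomes 8 and 11, 61 of 104 rose and 2 fell, 60.6% in all against 59.5% of the full set. No values by replicate are given here for chromosome 8. The part of either chromosome in the channel results was not tested.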

How the data were processed

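Total RNA of 10 teratomas was hybridised to 1-colour Affymetrix arrays, 1 array each. The log2 values used here are those the authors deposited. RMA and Partek appear in the submitters' processing notes, with no version, role or setting. If RMA set the arrays to 1 distribution, changes in total RNA were removed. The number of arrays limits the precision.

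Genes of probe sets came from the platform annotation, matched by Entrez number to RefSeq (GRCm38.p6). Apart from a block of 6616 without annotation, 21218 probe sets had 1 gene, 1881 several and 5841 none. Of 138 RefSeq symbols that meet the rule, 17 were not analysed here, nor were 8 channel probe sets with several symbols. Signal shared between paralogs cannot be separated.

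All 10 arrays entered 1 model with 3 group means in limma 3.58.1 (lmFit, eBayes with a variance trend, two-sided; R 4.3.3, statmod 1.5.0), with 7 residual degrees of freedom. P-values were adjusted by Benjamini-Hochberg over 18820 genes, and a gene passed at an adjusted p under 0.05. The script was tested on simulated data. Levels of different probe sets were not compared.

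The members, families, marker and partner lists were chosen with earlier results of these data known. The rule for named members took the largest differences among calls without overlap, the brightest member and the smallest p of each family, and a list of members known from a tissue, 66 in all. The others were named after their values were seen, to account for every member, as were partners other than Ank2, Ank3, Dpp6, Lgi1, Nalcn and Nedd4l. Alternatives were median centring, quantile normalization, the mean of a gene's probe sets, no dim genes, array weights, eBayes without trend or robust, fits on the compared groups alone, the replicate number or P81S clone pairings as blocks, and leaving out arrays.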

Additional observations from a re-analysis of the deposited data

Results flagged for a closer look

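In 9 of the 121 members (7.44%) the gap between 1 P81S array and the nearest other exceeded Dixon's 95% critical value for 4 arrays, against 6.43% of all genes. Chance flags about 1 in 20 groups, and groups of 3 were not tested.

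P81S replicate 1 was the outlying array in 5 of the 9. How often this array was outlying over all genes was not counted. The epithelial channels Kcnj15 and Kcnn4 were high in it, at 7.94 and 7.53, and Kcnk16, a K2P channel, was high at 5.92 against 5.63 to 5.67. Scn3a and Kcnip4 were low in it, at 8.54 against 8.97 to 9.05 and at 9.07 against 9.89 to 10.04. The mean of 8 epithelial markers was 11.21 in this array, and the part of epithelial cells in these values was not tested. Kcnk16 averaged 5.89 over all arrays, among the lowest 25% of genes.

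P81S replicate 4 was outlying and high for Kcnc4 (9.51 against 8.93 to 8.99) and Kcnh1 (9.07 against 8.73 to 8.79), and both rose against wildtype with or without it. P81S replicate 3 was high for Kcnj12 (6.92 against 6.26 to 6.34) and low for Kcns1 (5.72 against 5.91 to 5.95), and neither passed.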

How the results depend on the processing

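The number of members that passed in P81S against wildtype was 72, stayed between 56 and 81 under the other settings and was 64 to 75 when arrays were left out in turn. In P81S against R167Q it was 60. It fell to 32 without P81S replicates 3 and 4 (2419 of all genes, in place of 4234), and arrays left out in turn gave 36 to 68 members and 2328 to 4916 genes, the lowest of each without R167Q replicate 1. In R167Q against wildtype 0 members passed under every setting tried. Of all genes 17 passed there, 11 without dim genes, 26 with only the compared groups, 42 with array weights and 5 to 21 with arrays left out in turn. The cause of these changes was not tested, though fits without arrays have fewer samples.

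Replicate numbers did not pair the arrays: deviations of same-numbered arrays from their group means correlated at -0.278 to 0.212. With the replicate number as a block, 66 members passed in P81S against wildtype, 51 in P81S against R167Q and 0 in R167Q against wildtype. No fold of a member that passed moved by over 1.5 times and none changed direction, under any of these settings. The pairing of P81S clones is not known, and the signal over background of single probes was not used here, so how far members near the floor could have changed is not known.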

Other observations

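Kcnj8 and Abcc9, the pore and the sulfonylurea receptor of the ATP-sensitive potassium channel of pericytes and smooth muscle, gave similar values from array to array, and neither passed in any comparison. Kcnj8 read 9.21, 7.74, 8.28 and 8.50 in P81S, 7.43, 7.06 and 8.34 in wildtype, and 8.17, 8.24 and 9.13 in R167Q. Abcc9 read 9.35, 7.14, 7.99 and 8.22, then 7.14, 6.35 and 7.95, then 8.05, 8.05 and 8.34. The highest P81S array was replicate 1 and the highest wildtype array replicate 3 for both genes. The mean of 7 smooth muscle and pericyte markers, among them Rgs5, was 9.43 in P81S replicate 1, and its other P81S values were 7.99 to 8.82. The other receptor gene of this channel, Abcc8, known from neurons and pancreatic beta cells, differed by 0.35 ± 0.17 log2 between P81S and wildtype and did not pass, like its partner pore Kcnj11.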
